A study of Arabidopsis thaliana with 12 samples.

Results

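The genes described here encode 5 enzymes of carbon metabolism: PRK (AT1G32060), SBPASE (AT3G55800), AT5G58330, PPDK (AT4G15530) and ATSPS4F (AT4G10120). Each was read by the single probe whose platform annotation lists that gene and no other, so the set holds 5 of the 692 probes with exactly 1 gene on an array of 3439 probes, and no probe with several genes listed any of them. Total RNA of Arabidopsis thaliana was measured in 6 samples of the psad1 mutant and 6 wild-type (WT) samples, both of the Columbia 0 ecotype. Missing from the mutant is PSI-D1, the product of 1 of the genes for the photosystem I subunit PSI-D, while PSAD2 also encodes that subunit. The labels give no tissue, age, growth condition, allele or number of mutant lines, and none of 7 marker genes of seed, root hair, flower or senescence was read by a probe of its own, so the tissue was not checked. PSAD1 and PSAD2 were listed on no probe, so their transcripts could not be used to check the genotype labels.

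PSI-D sits on the stromal face of photosystem I, where ferredoxin docks and receives electrons. Reduced ferredoxin passes electrons on to thioredoxins through ferredoxin-thioredoxin reductase, and thioredoxins switch on PRK, SBPase and the chloroplast NADP-dependent malate dehydrogenase in the light by reducing disulfide bonds. PRK (phosphoribulokinase) makes ribulose bisphosphate, the acceptor of CO2, and SBPASE encodes sedoheptulose bisphosphatase, which commits carbon to regenerating that acceptor. The malate dehydrogenase encoded by AT5G58330 turns oxaloacetate into malate at the cost of NADPH, and the malate valve exports this reducing power from the chloroplast. PPDK (pyruvate, orthophosphate dikinase) forms phosphoenolpyruvate and is controlled by phosphorylation, and ATSPS4F encodes a sucrose phosphate synthase, a family of cytosolic enzymes that is also controlled by phosphorylation. Thioredoxin acts on the proteins, whereas the array measured transcripts.

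The 12 samples did not behave as 12 separate measurements. In each genotype, sample 1 deviated from the genotype mean together with sample 2, sample 3 with sample 4 and sample 5 with sample 6. Across probes, r was 0.469 to 0.649 within these sets and −0.609 to −0.111 between them. Centring on the mean of 6 samples alone gives unrelated samples an r of about −0.2, so negative values near that size are no sign of structure by themselves. The lowest value between sets, −0.609, lay well below it. Means ± SD below therefore refer to the 3 set averages of each genotype, and the test was limma on set averages across 3202 tested probes with Benjamini-Hochberg adjustment and a threshold of 0.05. By that test 28 probes, or 0.874%, differed between genotypes. Treating the 12 samples as independent gave 505 probes, or 15.8%, with 8.06% lower in psad1. Mean intensity per sample lay between 1.05 and 1.07 on the deposited linear scale, and median intensity between 0.554 and 0.623, lowest in psad1 samples 1 and 2. The precision of the values is limited by the number of arrays.

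PRK had lower intensity in psad1. The 6 psad1 samples measured 0.643, 0.608, 0.618, 0.613, 0.560 and 0.643, against 0.781, 0.773, 0.845, 0.792, 0.842 and 0.902 in the 6 WT samples. Every psad1 sample lay below every WT sample, which was so for 5.03% of the tested probes. PRK averaged 0.614 ± 0.0119 in psad1 and 0.822 ± 0.0476 in WT (SD, n = 3 set averages each). The log2 change, psad1 minus WT, was −0.42 with a standard error (SE) of 0.10 and a 95% interval from −0.64 to −0.20, which put psad1 at 0.747 of the WT level. In absolute size this change ranked 170 among the 3202 tested probes. In total RNA, fewer cells of a type and less RNA per cell cannot be told apart.

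The call for PRK depended on how the samples were counted. On set averages its adjusted p with limma was 0.0797, so PRK did not pass, nor did any other of the 5 genes. Of all tested probes 0.874% passed there. With the 12 samples in the fit and the sets as a random block, where 2.62% of all probes passed, limma gave an adjusted p of 0.0393. With 12 independent samples limma gave PRK an adjusted p of 0.000373. There 15.8% of all probes passed, 8.06% as lower in psad1. An exact permutation test over the 3 set averages of each genotype gave a two-sided p of 0.1, the smallest that this design allows.

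**Figure D1:**
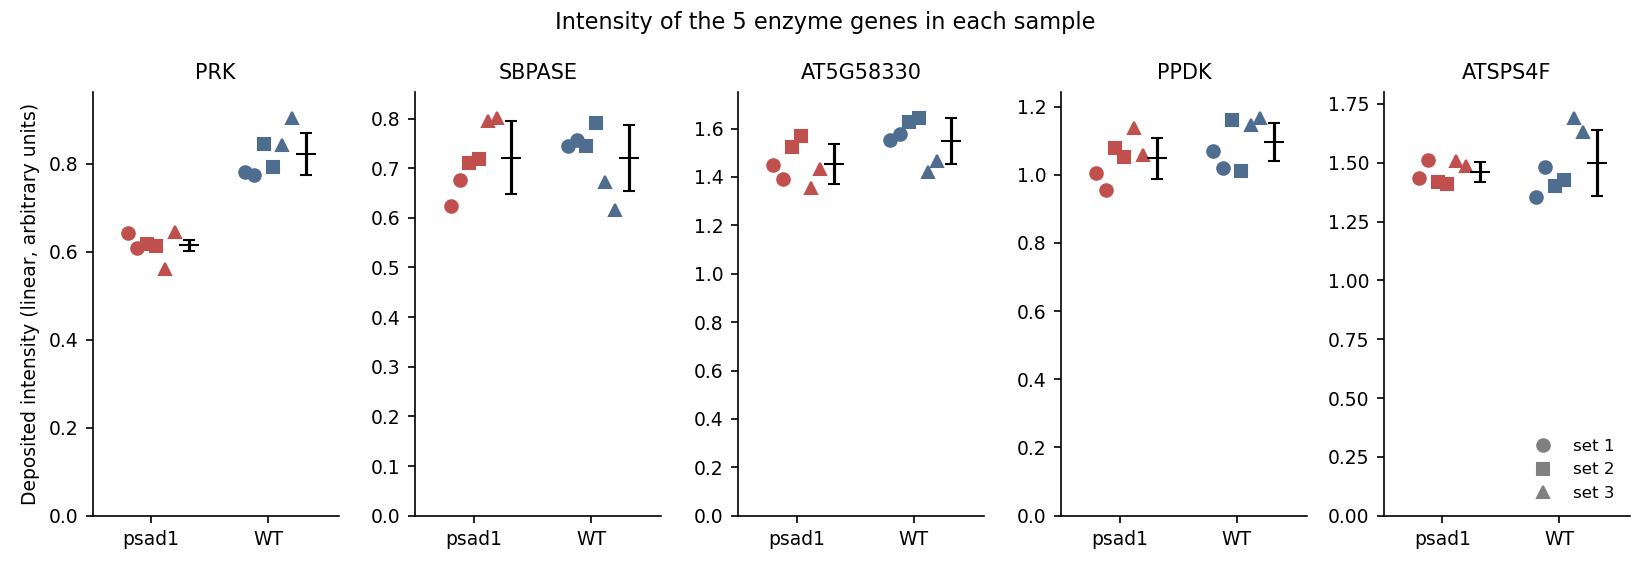
Deposited intensity (linear, arbitrary units, axes starting at 0) of the 5 genes in each psad1 and WT sample; marker shapes stand for the sets of 2 similar samples, and bars for the mean and SD of 3 set averages. PRK lies between 0.560 and 0.643 in psad1 and between 0.773 and 0.902 in WT, whereas the ranges of the other genes overlap.

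SBPASE, the other Calvin cycle gene, had nearly the same mean in both genotypes. It ran from 0.625 through a median of 0.714 to 0.800 in psad1, against 0.615, 0.745 and 0.790 in WT. The averages were 0.721 ± 0.0738 in psad1 and 0.720 ± 0.0671 in WT (SD, n = 3). The log2 change was 0.00030 (SE 0.12, limma adjusted p 0.999), with a 95% interval that corresponds to 0.831 to 1.20 of the WT level. In the deposited values the sets differed in opposite ways. Set 3 was the highest in psad1 (0.798, against 0.650 and 0.714 in sets 1 and 2) and the lowest in WT (0.644, against 0.750 and 0.767). After the position correction described below, set 3 was the lowest in both genotypes. Its log2 average was then −0.59 in psad1 (sets 1 and 2, −0.54 and −0.46) and −0.55 in WT (−0.47 and −0.29). Partner samples of SBPASE differed by at most 1.09-fold. In WT only set 3 stood further from the other sets than partners did from each other, since WT sets 1 and 2 nearly coincided.

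AT5G58330, the gene for the thioredoxin-regulated malate dehydrogenase, measured between 1.35 and 1.57 in psad1 with a median of 1.44, against 1.42 to 1.64 in WT with a median of 1.57. Of the 6 psad1 samples, 5 lay below the WT median and 2 below all WT samples, so the groups overlapped. Set averages were 1.42, 1.55 and 1.39 in psad1, against 1.57, 1.63 and 1.44 in WT. In both genotypes set 2 was the highest and set 3 the lowest in the deposited values. After the position correction described below, the log2 averages of sets 1, 2 and 3 were 0.60, 0.53 and 0.68 in psad1. In WT they were 0.63, 0.49 and 0.59, so set 2 was then the lowest in both genotypes. The mean was 1.45 ± 0.0822 in psad1 and 1.55 ± 0.0961 in WT (SD, n = 3). Its log2 change of −0.091 (SE 0.10) did not pass (limma adjusted p 0.698), and the 95% interval covered 0.799 to 1.10 of the WT level.

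PPDK measured 0.955 to 1.14 in psad1 with a median of 1.06, against 1.01 to 1.17 in WT with a median of 1.11. Set 1 was the lowest and set 3 the highest in both genotypes, with set averages of 0.981, 1.07 and 1.10 in psad1, against 1.04, 1.09 and 1.15 in WT. After the position correction described below, this order held in WT but not in psad1, where the log2 averages were 0.049, 0.069 and 0.043. The gene averaged 1.05 ± 0.0607 in psad1 and 1.10 ± 0.0559 in WT (SD, n = 3). This difference of −0.063 on the log2 scale (SE 0.10) was not past the threshold (limma adjusted p 0.794). The 95% interval covered 0.817 to 1.12 of the WT level. In Arabidopsis this gene gives rise to a chloroplast and a cytosolic form of the enzyme, which 1 probe value does not separate.

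ATSPS4F, the sucrose phosphate synthase gene, measured 1.41 to 1.51 in psad1 with a median of 1.46, and 1.36 to 1.69 in WT with a median of 1.46. All psad1 samples lay within the range of the WT samples, 3 above and 3 below the WT median. Its WT spread came from 1 set: set 3 averaged 1.66, against 1.42 in each of sets 1 and 2, while the psad1 sets averaged 1.47, 1.41 and 1.50. The mean was 1.46 ± 0.0426 in psad1 and 1.50 ± 0.140 in WT (SD, n = 3). The log2 change was −0.032 (SE 0.11, limma adjusted p 0.903), with a 95% interval of 0.829 to 1.15 of the WT level.

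None of the 5 genes was near the limit of low signal. The lowest value relative to the floor of its sample, the 5th percentile of positive intensities, was that of PRK in psad1 sample 5, at 3.08 times the floor. The differences between genotypes were therefore not shaped by values set to the floor.

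**Figure D2:**
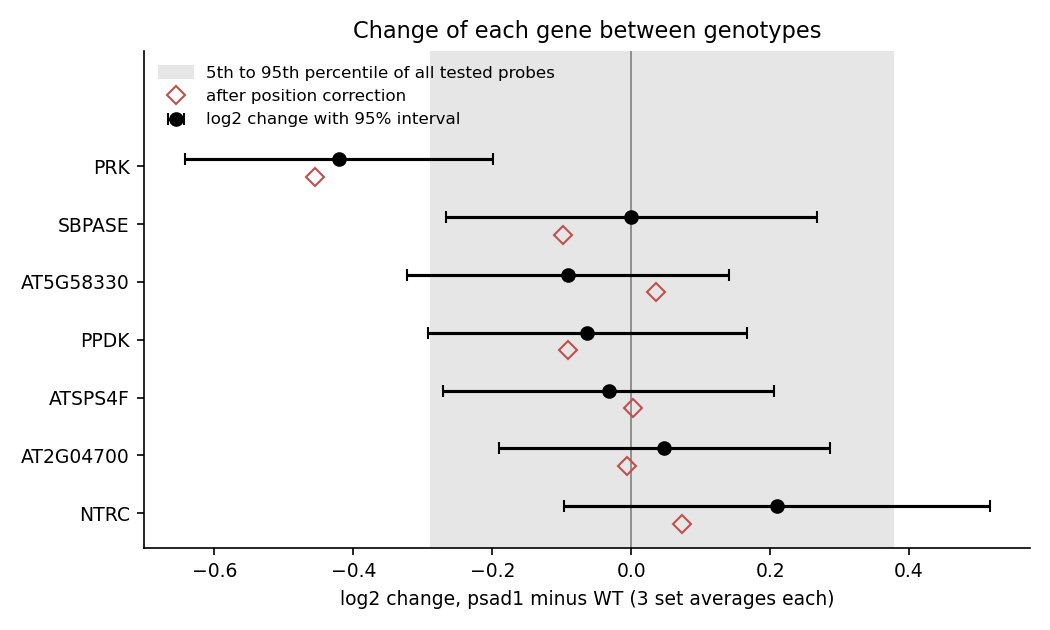
Log2 change, psad1 minus WT, with its 95% interval for the 5 enzyme genes and the thioredoxin system genes AT2G04700 and NTRC; open diamonds give the change after subtraction of the local trend along probe numbers, and the grey band spans the 5th to 95th percentile of all tested probes (−0.29 to 0.38). PRK alone lies outside the band, at −0.42. Its corrected change is −0.46, but the band covers uncorrected changes only.

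The log2 changes of the 3 thioredoxin-regulated genes were −0.42 for PRK, 0.00030 for SBPASE and −0.091 for AT5G58330, with a median of −0.091. Those of PPDK and ATSPS4F had a median of −0.048, and the median over all tested probes was −0.016. Of the 5 genes 4 had a negative change, against 53.3% of all tested probes. No test was made on these small groups.

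The log2 change of PRK differed from that of SBPASE by −0.42 (SE 0.16), from that of AT5G58330 by −0.33 (SE 0.10), from that of PPDK by −0.36 (SE 0.065) and from that of ATSPS4F by −0.39 (SE 0.053). Unlike the limma SEs above, those in this paragraph rest only on the 3 set averages of each genotype. They are thus imprecise, and for PRK over PPDK the SD of the WT sets was only 0.0113. In each of these 4 comparisons the ratio of PRK to the other gene was lower in all 3 psad1 sets than in all 3 WT sets. The same held for 73.5% of all other tested probes set against PRK, so it describes PRK and not a relation to these enzymes. Without PRK, the remaining thioredoxin-regulated genes differed from the others by less than their errors. SBPASE minus PPDK was 0.063 (SE 0.13), SBPASE minus ATSPS4F 0.032 (SE 0.18), AT5G58330 minus PPDK −0.028 (SE 0.11) and AT5G58330 minus ATSPS4F −0.059 (SE 0.14). These 4 ratios overlapped between the genotypes.

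**Figure D3:**
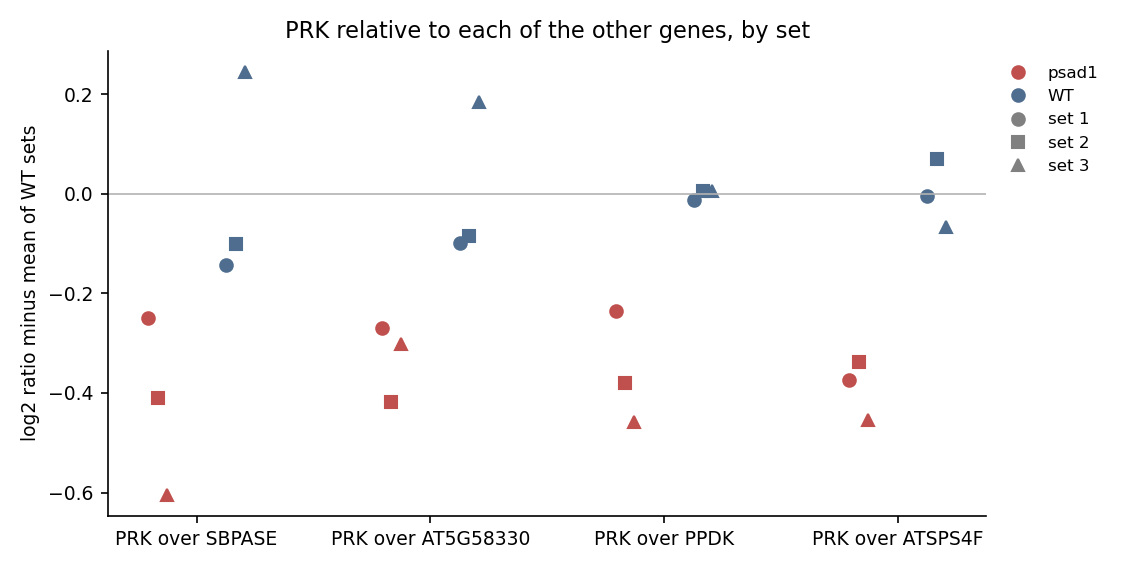
Log2 ratio of PRK to each of the other 4 genes in the 3 psad1 and 3 WT sets, with the mean of the WT sets subtracted. The psad1 sets lie below the WT sets in each ratio, with the smallest gap for PRK over SBPASE.

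Log2 changes on this array were alike in probes next to each other in number (r = 0.446 across 3201 neighbouring pairs of tested probes, which are not independent replicates), and the numbers were assumed to follow the layout. Each gene was therefore compared with the 12 tested probes on either side. The log2 change of PRK, −0.42, was below all 24 neighbours, which ran from −0.31 to 0.33 with a median of 0.047. How often other probes lie below all their neighbours was not counted. SBPASE, at 0.00030, had neighbours with a median of 0.093, and 18 of 24 of them were above it. AT5G58330 lay within a stretch of lower values, its −0.091 beside a neighbour median of −0.12, with 15 of 24 neighbours below it. PPDK had 19 of 24 neighbours above it (median 0.017), and ATSPS4F lay in the middle of its own, with 12 below and 12 above (median −0.038). One of those neighbours was CCL, a gene known for its clock-regulated and unstable transcript, whose log2 change was −0.71.

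**Figure D4:**
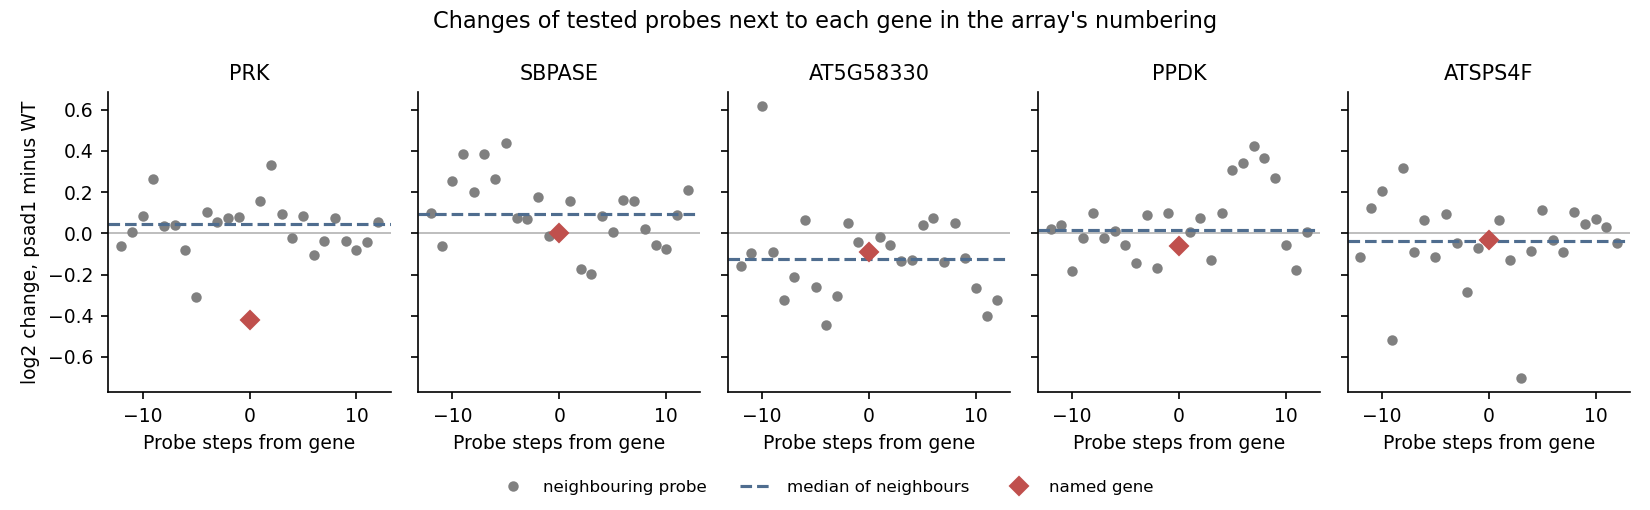
Log2 change, psad1 minus WT, of each gene (diamond) and of the 12 tested probes on either side in the array's numbering (grey points, dashed line for their median). PRK lies below all 24 of its neighbours, while the other 4 genes lie within the range of theirs.

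When the running median over 25 probes was subtracted from each sample, the log2 change of PRK became −0.46. Its limma adjusted p on set averages was 0.0405, where 1.75% of all probes passed. The limma SE of PRK fell to 0.078, from 0.10 before, although its WT sets spread more widely (below). That SE also draws on the variance of all tested probes. SBPASE then had −0.098, AT5G58330 0.035, PPDK −0.091 and ATSPS4F 0.0020, and none of these passed. In relative terms the spread between sets shrank most for PPDK, whose SD of log2 set averages was 0.084 in psad1 and 0.074 in WT before the correction, and 0.014 in psad1 and 0.035 in WT after it. For SBPASE it was 0.15 in psad1 and 0.14 in WT before, and 0.064 in psad1 and 0.13 in WT after. For PRK in WT it was wider after the correction, 0.13 against 0.083, as it was for ATSPS4F in psad1, 0.064 against 0.042. In every other gene and genotype it was narrower, for AT5G58330 in psad1 only slightly (0.074 against 0.081). Part of the pattern remained, since log2 changes of adjacent probes still correlated after the correction (r = 0.188, against 0.446 before).

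Few other genes of these pathways could be traced to a probe of their own. In 7 lists of the Calvin cycle, malate, phosphoenolpyruvate, sucrose and starch metabolism, photorespiration and the ferredoxin and thioredoxin system, 136 genes were named and 7 were measured by a tested probe with 1 gene, the 5 enzymes among them. A further 6 were listed only on probes with several genes and were not analysed here. None of the 7 rose and none fell on set averages, where 0.874% of all tested probes passed. On 12 samples PRK fell and none rose, where 15.8% of all tested probes passed, 8.06% as lower in psad1.

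Both added genes belong to the thioredoxin system. AT2G04700, which encodes the catalytic subunit of ferredoxin-thioredoxin reductase, averaged 0.607 ± 0.0398 in psad1 and 0.587 ± 0.0425 in WT (SD, n = 3), and differed by 0.048 on the log2 scale (SE 0.11, limma adjusted p 0.852). NTRC, a chloroplast thioredoxin reductase that draws on NADPH and carries its own thioredoxin domain, averaged 0.796 ± 0.0774 in psad1 and 0.693 ± 0.115 in WT, and differed by 0.21 on the log2 scale (SE 0.14, limma adjusted p 0.490). The psad1 samples of NTRC ran from 0.663 to 0.890 and the WT samples from 0.570 to 0.865, so the groups overlapped. After the position correction its log2 change was 0.074.

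The pattern over the 12 samples was also compared with the 639 other tested probes that list 1 gene, by Pearson's r of log2 intensity, as a description only. The samples share sets and array position, so these values rest on fewer than 12 independent points. PRK was most like AT1G31790 (r = 0.958) and CCL (r = 0.913). Within genotypes, after subtraction of each genotype's mean, r with PRK was 0.776 for AT1G31790 and −0.0806 for CCL, so the likeness of CCL came from the difference between genotypes. After the position correction r with PRK was 0.690 for AT1G31790 and 0.846 for CCL. SBPASE was most like AT5G19210 (0.877) and AT5G11010 (0.873), but after the position correction these were 0.229 and 0.299.

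AT5G58330 was most like AT5G48440 (0.918) and AT1G64430 (0.914), which turned to −0.747 and −0.657 after the position correction. PPDK was most like AT1G13970 (0.902, and 0.607 after the correction) and AT3G44610 (0.867, and 0.191 after it). ATSPS4F had the weakest best matches, AT2G35450 (0.807) and AT2G47830 (0.802), with 0.507 and 0.504 after the correction. None of the 5 enzyme genes was among the closest matches of another.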

How the data were processed

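The authors deposited 1 table of intensities, 3439 probes by 12 samples, linear and never negative. The scanner, the background correction and any scaling are points not given in the sources used here. Column means lay within 1.05 to 1.07, medians within 0.554 to 0.623, and 139 to 160 probes per sample were at 0. No further scaling was applied, and quantile normalization and median centring were alternatives. Genes were named from the platform annotation, with 690 of 692 single-gene probes matched to the TAIR10.1 gene table.

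Intensities below the 5th percentile of each sample's positive values (0.152 to 0.184) were set to it. The 237 probes at or below it in all samples were left out, log2 was taken, and sets of 2 samples were averaged. A linear model with moderated variances (limma 3.58.1, R 4.3.3, two-sided) was fitted across all tested probes, psad1 minus WT. It was tested on simulated data with set structure. Figures used matplotlib 3.10.9.

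The genes, gene lists, sets, tests and position correction were chosen with earlier results of these data known. Named genes were the 5 enzymes, list genes with a tested probe of their own, and for each enzyme the 2 single-gene probes with the highest r. The labels name no separate plants or cultures. The p-values thus reflect only how far these samples scatter, possibly for technical reasons. Deviations of psad1 and WT samples with the same number correlated at 0.00805 to 0.483, with 4 of 6 pairs over 0.1. Of the 12 samples, 8 were most like the sample of their own number in the other genotype. For set averages with the same number, r was 0.228, 0.488 and −0.0541 in sets 1, 2 and 3. The genotypes may thus share batches by number, but the main fit did not use the numbers as pairs. Alternatives changed the replicate unit, block, normalization, floor, filter, variance prior, position correction and samples left out.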

Additional observations from a re-analysis of the deposited data

Results flagged for a closer look

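In a check of 20 values for single samples far from the other samples of their genotype, 2 were flagged. AT2G04700 measured 0.715 in psad1 sample 1, against 0.555 to 0.607 in the other psad1 samples, a gap of 0.672 of the range in psad1. WT sample 5 had a mean intensity over all probes of 1.07, and the remaining WT samples 1.05 to 1.06. The psad1 samples ran from 1.06 to 1.07, so this mean was not unusual for the series. About 1 in 20 groups of independent samples is marked by chance, and these samples were not independent. A pair of like samples away from the rest, such as WT set 3 in SBPASE or ATSPS4F, is not marked this way.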

How the results depend on the processing

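The log2 change of PRK kept its direction in all 37 alternatives (−0.53 to −0.37), with adjusted p from 0.000210 to 0.235. PRK passed on 12 samples (−0.42, adjusted p 0.000373), with sets as a random block (−0.42, 0.0393), on 12 samples with the sample number as a replicate block (−0.42, 0.00158), and after the position correction on set averages (−0.46, 0.0405) and on 12 samples (−0.46, 0.000210). With a replicate block for the set number it did not pass on set averages (0.0998). With a set or sample left out its change ranged from −0.53 to −0.38, and it passed only after the position correction without WT set 1 (0.0435), an alternative chosen after the data were seen. PPDK kept its direction in all alternatives (−0.11 to −0.016). SBPASE turned to −0.0068 with quantile normalization, −0.0073 with median centring and −0.098 after the position correction (−0.15 to 0.072 with a set or sample left out). After the position correction AT5G58330 was 0.035, ATSPS4F 0.0020 and AT2G04700 −0.0065, and with a set or sample left out they ranged from −0.14 to 0.072, −0.070 to 0.044 and −0.055 to 0.098. None of these values passed, and the cause was not tested. Against 28 probes on set averages, 505 passed on 12 samples, 84 with a random block, 761 on 12 samples with a replicate block, 46 with a floor at the 10th percentile, 48 with probes above the floor in all samples, 51 with no filter, and 56 and 440 after the position correction on set averages and 12 samples. Leaving out a set or sample gave 9 to 53. Of the 28 probes 53.6% were higher in psad1, against 39.3% with median centring.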
